A study of Danio rerio with 8 samples.

Results

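Immediate early transcription factors were followed in zebrafish hindbrains in which Fgf receptor signalling had been switched on. The genes were listed by name, with earlier results of these data known, as fosab, fosb, fosl1a, egr1, egr3, junba, junbb, ier2a, ier2b and atf3. They matched 10 Ensembl gene IDs of the 32189 in the deposited count table. For fosab, fosb, fosl1a, egr3 and atf3 the symbol table gives the names FOS, FOSB, FOSL1, EGR3 and ATF3. It gives junba and junbb the same name, JUNB, so these paralogues are written as JUNB with their ID, and which is which could not be told from it.

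Each of the 8 libraries was made from the RNA of a single dissected hindbrain, with the tissue around it per the labels, and the study's methods say that dissections were checked by qPCR and only clean ones used. Of these, 4 came from embryos carrying Tg(hsp70:ca-fgfr1), a heat-inducible transgene for constitutively active Fgfr1 (called ca_fgfr1 here), and 4 from control embryos. All the embryos, controls included, were from outcrosses, were raised at 28.5°C, were placed at 38.5°C for 30 min at 22 hours post-fertilisation (hpf), recovered for 2 h and were dissected at 24 to 25 hpf. Carriers were heterozygous, the hsp70 promoter is not restricted to the hindbrain, and carriers and controls of the same clutch were told apart only after RNA extraction, by qPCR. No group of embryos without heat shock was analysed here, so the level before heat shock is not known.

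Immediate early genes are transcribed within minutes of a growth factor or stress signal, with no need for new protein. Downstream of receptor tyrosine kinases such as the Fgf receptors, the Ras and Erk kinase cascade activates factors already bound at their promoters, among them serum response factor and its Elk partners. Their transcripts are short-lived, and many encode transcription factors that go on to control later genes: Fos and Jun proteins pair to form the AP-1 factor, and Egr proteins bind DNA through zinc fingers.

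Total counts ran from 15327169 to 20541155 in the ca_fgfr1 libraries and from 13173019 to 17980114 in the control libraries. Expression is given as CPM, a gene's counts relative to the library total after TMM scaling (a trimmed mean of M values), and 3 counts amount to between 0.143 and 0.281 CPM. Control replicate 1 stood apart, with a mean correlation of 0.893 to the other control libraries, whereas this ran from 0.926 to 0.953 for the remaining 7 libraries with their own groups. Its TMM factor was 0.811, the lowest of the 8. Hindbrain progenitor and neuron markers (14 IDs, all detected) summed to between 2371 and 3345 CPM in ca_fgfr1 libraries and to between 2453 and 3470 CPM in control libraries. The sum is weighted to sox3, the most abundant, and some markers varied more. The neuronal gene elavl3 had 511, 139, 497 and 486 CPM in ca_fgfr1 replicates 1 to 4, against 183, 661, 745 and 796 CPM in control replicates 1 to 4. elavl4 was also lowest in ca_fgfr1 replicate 2 and control replicate 1 of their groups. neurog1 was lowest in ca_fgfr1 replicate 3 and control replicate 1. The endogenous FGFR1 IDs had 17.7 to 23.1 CPM (ENSDARG00000011027) and 6.28 to 18.4 CPM (ENSDARG00000011190) in ca_fgfr1 libraries, against 13.9 to 25.5 CPM and 10.2 to 26.5 CPM in control libraries. Reads of the transgene were not analysed here, so these values do not check the labels.

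All 10 genes had their highest value in ca_fgfr1 replicate 4 and their second highest in ca_fgfr1 replicate 3, and in these libraries every one of them lay above all 4 controls, as did 6.16% of all genes tested. In ca_fgfr1 replicates 1 and 2 the values were much closer to the controls: 5 of the 10 genes lay above every control in replicate 1 (14% of all genes tested), and 6 of 10 in replicate 2 (16.4%). The difference between groups and the spread within the ca_fgfr1 group were therefore both large. In RNA of whole tissue, more cells that express a gene and more RNA per expressing cell cannot be told apart.

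The Fos genes encode leucine zipper proteins that bind DNA only as dimers, usually with a Jun protein. fosab (ENSDARG00000031683), the zebrafish counterpart of the proto-oncogene c-Fos, had 3.29, 3.89, 27.2 and 36.9 CPM in ca_fgfr1 replicates 1 to 4, against 5.90, 2.86, 1.49 and 1.37 CPM in control replicates 1 to 4. Replicates 3 and 4 of ca_fgfr1 were far above all controls, while its replicates 1 and 2 lay below control replicate 1, so the groups overlapped. The means were 17.8 ± 16.9 CPM in ca_fgfr1 and 2.90 ± 2.11 CPM in control (SD, n = 4 each), and the log2 fold change (ca_fgfr1 minus control) was 2.64 ± 0.81 (SE), with an unadjusted p of 0.00759 and an adjusted p of 0.801 by edgeR's quasi-likelihood test.

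fosl1a (ENSDARG00000015355) encodes Fra-1, a Fos-related protein whose transcription in mammalian cells depends on sustained Erk signalling. It had 2.86, 3.35, 7.24 and 29.0 CPM in ca_fgfr1 replicates 1 to 4, against 0, 1.36, 1.23 and 0.146 CPM in control replicates 1 to 4. Here all 4 ca_fgfr1 libraries were above the highest control, although replicate 4 held most of the signal, with 444 of the 686 counts of its group. Control replicate 1 had no count and control replicate 4 had 3, so only 2 control libraries reached the 0.565 CPM required by the filter on low counts, and the gene was kept because of the ca_fgfr1 libraries. Its log2 fold change was 3.90 ± 1.01, the largest of the immediate early genes tested (edgeR adjusted p = 0.614).

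fosb (ENSDARG00000055751), another Fos partner of Jun, was close to the limit of detection and did not pass the filter. It had 2, 3, 10 and 11 counts in ca_fgfr1 replicates 1 to 4, against 6, 1, 4 and 0 counts in control replicates 1 to 4. At 0.562 CPM, control replicate 1 lay between the lower and the higher pair of ca_fgfr1 libraries (0.0954, 0.179, 0.574 and 0.719 CPM), and the groups overlapped. With no filter, edgeR gave a log2 fold change of 1.01 ± 1.0 (adjusted p = 0.841), so no difference in fosb was detected. The summed counts, 26 in ca_fgfr1 and 11 in control, gave a depth-scaled ratio of 2.19. Its exact 95% interval of 1.05 to 4.92 covers counting error only and not the spread between libraries.

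The JUNB paralogues encode Jun-family partners of the Fos proteins. ENSDARG00000104773 had 5.77, 7.35, 30.9 and 73.4 CPM in ca_fgfr1 replicates 1 to 4, against 4.12, 8.59, 3.54 and 4.10 CPM in control replicates 1 to 4. Its ca_fgfr1 replicates 1 and 2 were below control replicate 2, while replicates 3 and 4 were several times above it. The means were 29.4 ± 31.5 CPM in ca_fgfr1 and 5.09 ± 2.35 CPM in control (SD, n = 4 each), and the log2 fold change was 2.53 ± 0.74 with an edgeR adjusted p of 0.757.

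ENSDARG00000074378 showed the same ranking of ca_fgfr1 libraries, with 1.72, 2.21, 7.35 and 22.5 CPM in replicates 1 to 4, against 3.47, 0.954, 0.769 and 1.22 CPM in control replicates 1 to 4. Control replicate 1 exceeded the lower pair of ca_fgfr1 libraries, as it did for fosab. The log2 fold change of 2.43 ± 0.82 (edgeR adjusted p = 0.866) was close to that of its paralogue. The counting program divides reads that fit both copies between them, so the separate values of JUNB paralogues, like those of ier2a and ier2b, carry that uncertainty.

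The Egr genes encode zinc finger factors that are standard read-outs of Erk activity in vertebrate cells. egr1 (ENSDARG00000037421) had 3.91, 4.07, 22.3 and 81.0 CPM in ca_fgfr1 replicates 1 to 4, against 0.937, 2.59, 2.56 and 1.71 CPM in control replicates 1 to 4. The lowest ca_fgfr1 library was above the highest control, but replicate 4 of ca_fgfr1 was itself 20.7 times its replicate 1. That was the widest range within ca_fgfr1 among the immediate early genes tested. Means of 27.8 ± 36.5 CPM in ca_fgfr1 and 1.95 ± 0.790 CPM in control (SD, n = 4 each) differed by 3.81 ± 0.93 in log2 fold change, with an edgeR adjusted p of 0.526.

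egr3 (ENSDARG00000089156), which in mammals is itself a target of neuronal and lymphocyte activation, was almost silent in controls and did not pass the filter. It had 6, 2, 11 and 50 counts in ca_fgfr1 replicates 1 to 4, against 0, 1, 0 and 0 counts in control replicates 1 to 4. Every ca_fgfr1 library was above every control, yet replicate 2 was so only by 2 counts against 1. Summed over each group, 69 counts in ca_fgfr1 stood against 1 in control, a depth-scaled ratio of 64.0 with an exact 95% interval of 11.1 to 2566 that covers counting error only. Most of these counts, 50 of the 69, came from ca_fgfr1 replicate 4, and the DESeq2 log2 fold change was 5.81 with it and 4.17 without it. It was the 1 gene whose ca_fgfr1 libraries did not run in the order replicate 4, 3, 2, 1 from the highest.

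The Ier2 genes encode small nuclear proteins named as immediate early response factors, and in zebrafish ier2 has been placed downstream of Fgf in left-right patterning. ier2a (ENSDARG00000099195) had 26.5, 56.1, 105 and 259 CPM in ca_fgfr1 replicates 1 to 4, against 25.2, 20.1, 13.4 and 10.1 CPM in control replicates 1 to 4. The groups did not overlap, but the gap was narrow, since ca_fgfr1 replicate 1 was barely above control replicate 1. Its log2 fold change was 2.70 ± 0.62, and it had the lowest p of the 8 genes tested (unadjusted 0.00113, adjusted 0.477 by edgeR).

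ier2b (ENSDARG00000086881) was at 1.57, 2.15, 4.54 and 5.29 CPM in ca_fgfr1 replicates 1 to 4, against 1.69, 0.545, 1.44 and 0.927 CPM in control replicates 1 to 4. Only ca_fgfr1 replicate 1 fell within the control range. At a log2 fold change of 1.56 ± 0.51, with an edgeR adjusted p of 0.866, ier2b showed the smallest difference of the immediate early genes tested.

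atf3 (ENSDARG00000007823) encodes a leucine zipper factor of the ATF and CREB family that is induced by many kinds of cell stress as well as by growth factors. It had 8.64, 13.2, 18.0 and 27.7 CPM in ca_fgfr1 replicates 1 to 4, against 5.71, 7.91, 4.46 and 4.30 CPM in control replicates 1 to 4. No control reached the lowest ca_fgfr1 library, and the ca_fgfr1 libraries were closer together than for any of the other genes, the highest being 3.21 times the lowest. The means were 16.9 ± 8.17 CPM in ca_fgfr1 and 5.59 ± 1.67 CPM in control (SD, n = 4 each), and the log2 fold change was 1.59 ± 0.38 with an edgeR adjusted p of 0.504.

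**Figure D1:**
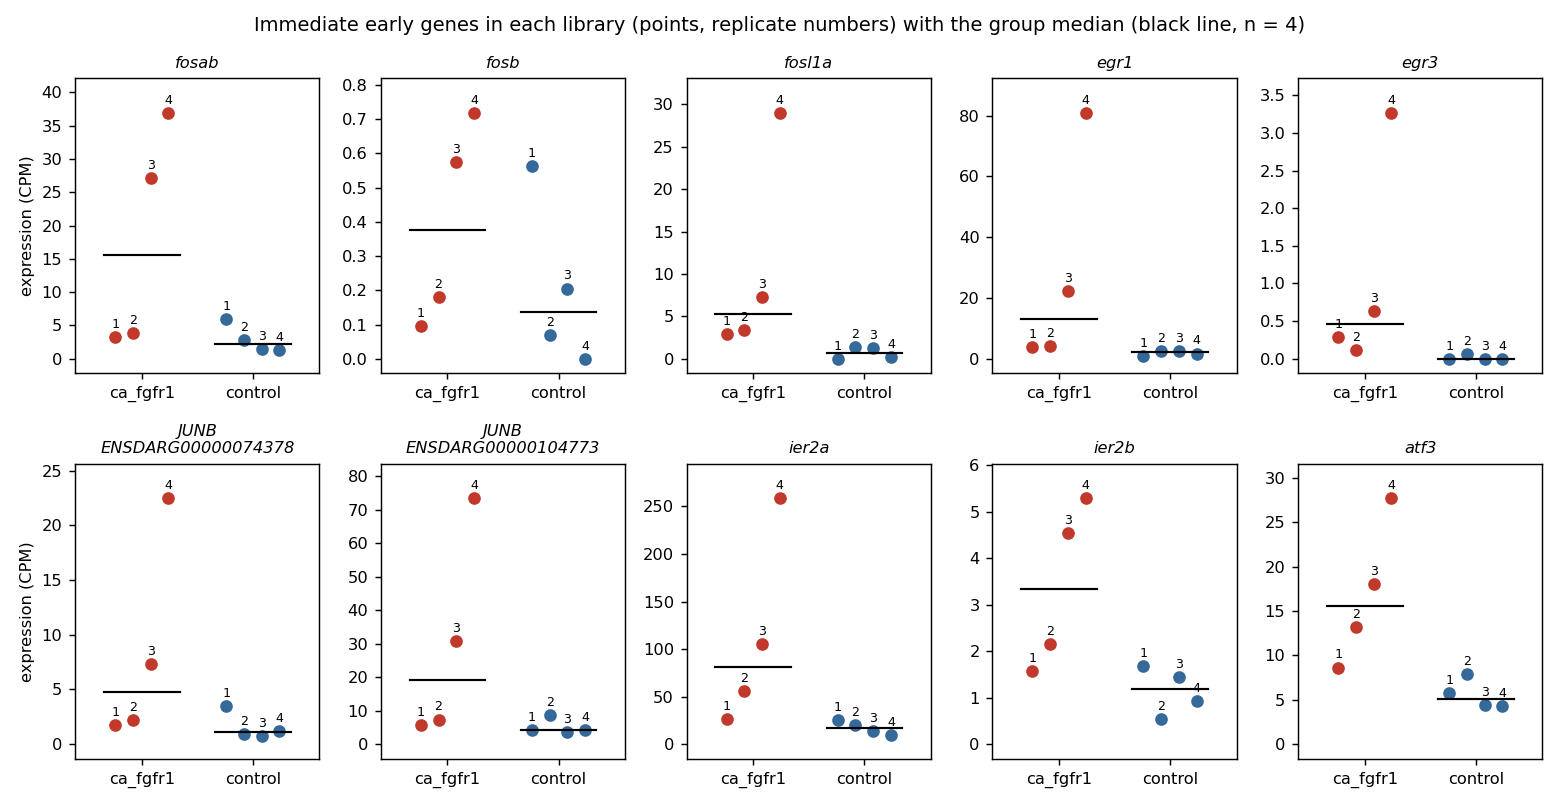
Expression (CPM, linear axis, a separate scale for each gene) of the 10 immediate early genes in the 4 ca_fgfr1 libraries (red) and the 4 control libraries (blue). Each point is a library marked with its replicate number and the black line is the group median. In every panel ca_fgfr1 replicate 4 is the highest point and ca_fgfr1 replicate 3 the second, as for egr1 at 81.0 and 22.3 CPM.

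Of the 10 genes, 8 passed the filter and were tested. None passed an adjusted p of 0.05 in edgeR, where 9 of 18075 genes did (0.0498%), while all 8 had an unadjusted p under 0.05 and were higher in ca_fgfr1, as were 386 genes (2.14%). Their log2 fold changes ran from 1.56 to 3.90 with a median of 2.59, and all 8 were at least 1, as were 271 of all genes tested (1.50%). Over all genes tested the median was -0.04, and 45.9% were above 0. These counts describe the genes that passed the filter, and fosl1a passed it through its ca_fgfr1 libraries.

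DESeq2, the tool used by the study, called 5 of the genes at an adjusted p of 0.05 (0.344% of the 20077 genes with an adjusted p were called higher). These were ier2a (adjusted p = 0.00255), atf3 (0.0261), egr3 (0.0270), egr1 (0.0302) and JUNB ENSDARG00000104773 (0.0413). The study's own criteria asked for an adjusted p no higher than 0.01, a change of 2-fold or more, and normalised counts above 30 throughout one of the groups. Under them DESeq2 called ier2a alone among the 10 (0.179% of genes). With edgeR these criteria called 3 genes (0.0166%) and none of the 10. limma-voom called none of the 8 at an adjusted p of 0.05 (0.0553% of genes were called).

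The groups did not overlap for 4 of the 8 genes tested (fosl1a, egr1, ier2a and atf3), as for 344 genes in all (1.90%), and for egr3 among the genes not tested. Since fosl1a passed the filter only through its ca_fgfr1 libraries, its place in this count is not independent of the difference. In a two-sided exact permutation test of single genes, over the 70 ways of dividing 8 libraries into 4 and 4, these 4 genes had p = 0.0286, the smallest value the design allows, and an adjusted p of 0.855. The other exact permutation p-values were 0.0571 for ier2b, 0.0857 for JUNB ENSDARG00000104773, and 0.114 for fosab and for JUNB ENSDARG00000074378. With any 1 control library left out, 1 gene was at an exact permutation p of 0.05 or less. With 4 against 3 libraries a separated gene need not reach the smallest p. The groups did not overlap for 4 to 7 genes in these fits (2.39% to 12.2% of all genes tested). Apart from rescaling, leaving out a library cannot make separate groups overlap, so this count could hardly fall. Without ca_fgfr1 replicate 4, 2 genes were at an exact permutation p of 0.05 or less.

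The spread within the ca_fgfr1 group is given as a description, with no test. The SD of log2 CPM over the ca_fgfr1 libraries was larger than over the controls for 7 of the 8 genes tested, as for 32.8% of all genes, the exception being fosl1a (1.50 in ca_fgfr1, 1.80 in control, where its values start at 0). The median SD of the 8 genes was 1.59 in ca_fgfr1 and 0.644 in control, against 0.365 and 0.526 over all genes tested. It exceeded 1 in ca_fgfr1 for 6 of the 8 (6.45% of all genes), and only atf3 (0.706) and ier2b (0.807) stayed below.

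The libraries ranked alike from gene to gene. All 10 genes peaked in ca_fgfr1 replicate 4, as did 10.6% of all genes tested, and 9 of 10 ran in the order replicate 4, 3, 2, 1 within ca_fgfr1, as did 5.55%. Centred on the mean over all libraries, the median log2 CPM of the 8 tested genes was -0.38, -0.00, 1.64 and 2.91 in ca_fgfr1 replicates 1 to 4, and -0.59, -0.83, -1.19 and -1.31 in control replicates 1 to 4. Genes measured in the same libraries share whatever sets a library apart, so these counts are not independent of each other.

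**Figure D2:**
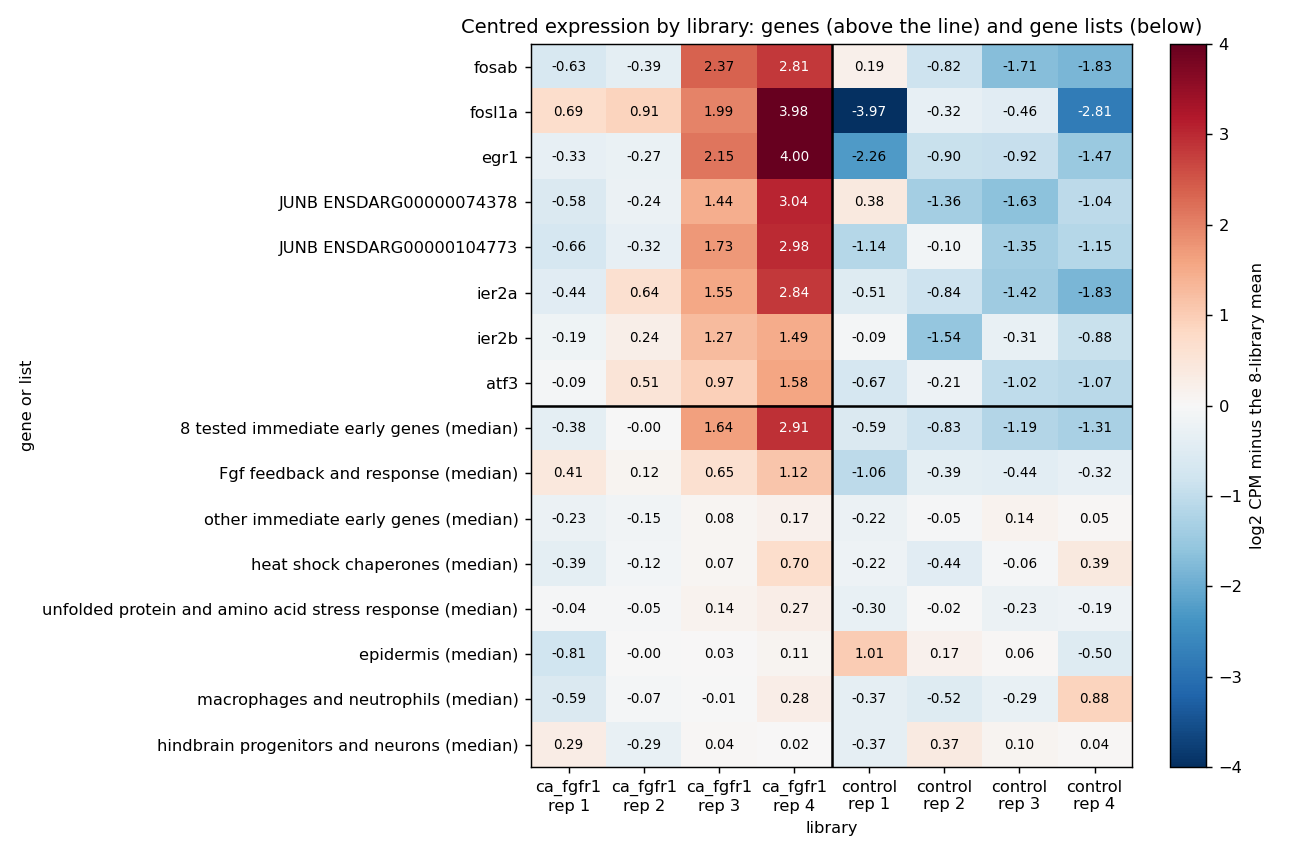
Log2 CPM minus the mean over the 8 libraries (colour and printed value, red above and blue below the mean) for each of the 8 genes tested (above the line) and the median of gene lists (below it), in ca_fgfr1 replicates 1 to 4 (left) and control replicates 1 to 4 (right). The immediate early genes shade from near 0 in ca_fgfr1 replicates 1 and 2 to a median of 2.91 in replicate 4, while the heat shock chaperone median, for one, also runs upwards within ca_fgfr1 (-0.39, -0.12, 0.07 and 0.70) and that of the hindbrain markers does not.

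Which libraries entered the fit moved the size of the difference more than its direction. With ca_fgfr1 replicate 4 left out, the median log2 fold change of the 8 genes was 1.67, and with control replicate 1 left out it was 3.02. No fold change of the 8 genes turned negative under any library left out, and the edgeR adjusted p stayed at 0.144 or above throughout. Without control replicate 1 the groups were separate for 7 of the 8 genes, but this was then true of 12.2% of all genes tested. The number of DESeq2 calls among the 10 genes moved with the library left out. It was 7 without ca_fgfr1 replicate 1 or control replicate 1, 6 without ca_fgfr1 replicate 2 and 4 without control replicate 2. It was 1 without control replicate 3 or control replicate 4, and 0 without ca_fgfr1 replicate 4. Without control replicate 1, fosb and egr3 had no adjusted p, and without ca_fgfr1 replicate 4, fosab and egr3 had none. Without control replicate 3 or control replicate 4, fosb had none. The share of all genes that DESeq2 called in these fits is not given here. In edgeR, 13% of genes tested were higher at an unadjusted p under 0.05 without control replicate 1, against 2.14% with all libraries. Without ca_fgfr1 replicate 3, DESeq2 called 1 gene and gave no p to 5 of them, because their counts in 1 library were marked as extreme.

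**Figure D3:**
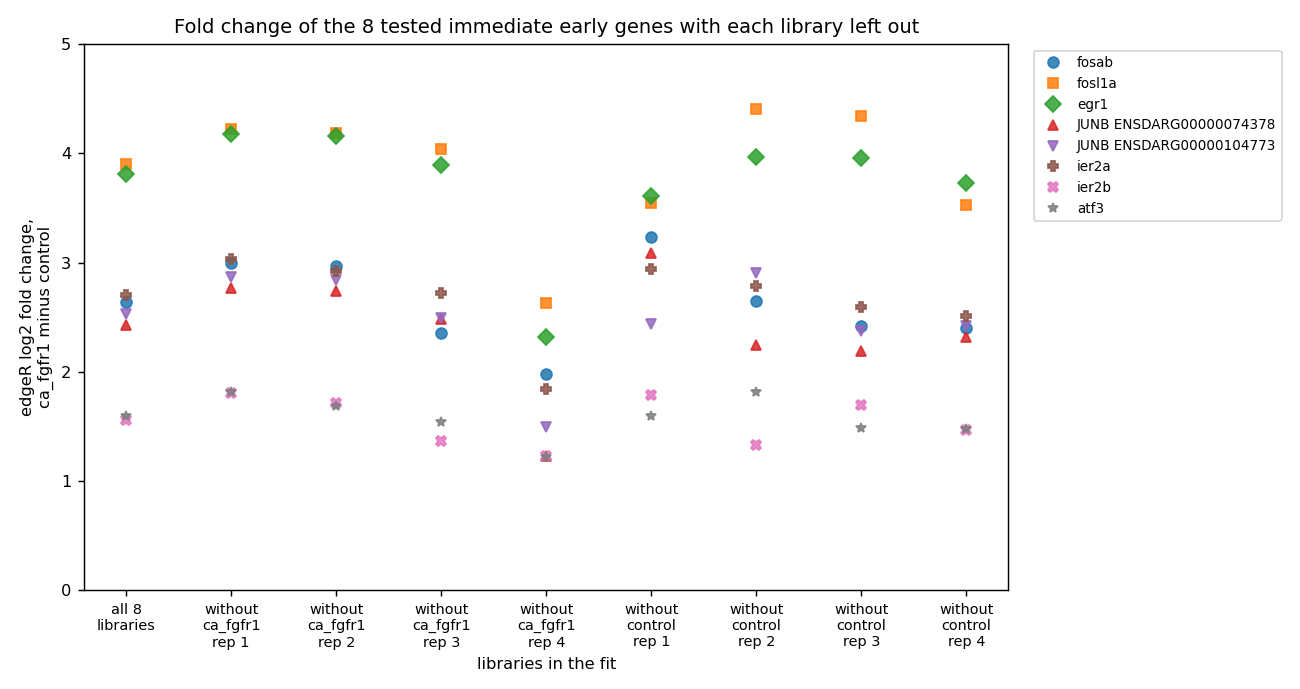
edgeR log2 fold change (ca_fgfr1 minus control) of the 8 tested genes with all 8 libraries and with each library left out in turn. Every value is above 0, and the set is lowest without ca_fgfr1 replicate 4, where its median is 1.67.

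Other immediate early genes lay on both sides of 0. Of 39 names listed, 33 were matched, some to more than 1 ID, giving 37 IDs. Of these IDs 31 were tested, of which 15 had a log2 fold change above 0 and 16 below, with a median of -0.02. At an unadjusted p under 0.05, 2 were higher and 3 lower, none passed an adjusted p of 0.05 in edgeR and 2 did in DESeq2, and 10 of the 31 peaked in ca_fgfr1 replicate 4.

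MYC ENSDARG00000045695, a paralogue of the growth regulator c-Myc, had 25.5, 21.1, 40.0 and 42.8 CPM in ca_fgfr1 replicates 1 to 4, against 7.87, 16.2, 10.9 and 8.54 CPM in control replicates 1 to 4. The groups did not overlap, and the log2 fold change was 1.57 ± 0.33 (adjusted p = 0.330 by edgeR, 0.00442 by DESeq2). egr4, another Egr zinc finger gene, had 0.477, 0.658, 2.01 and 2.94 CPM in ca_fgfr1 replicates 1 to 4, against 1.50, 0.341, 0.410 and 0.195 CPM in control replicates 1 to 4. It ranked the ca_fgfr1 libraries like fosab and overlapped with control replicate 1 in the same way (log2 fold change 1.38 ± 0.75, edgeR adjusted p = 0.866). maff, a small Maf leucine zipper factor, also had separate groups, the log2 fold change being 0.80 ± 0.24 with an edgeR adjusted p of 0.789. jun, the classical partner of Fos, had 25.7, 35.9, 46.4 and 68.9 CPM in ca_fgfr1 replicates 1 to 4, against 79.0, 64.8, 56.5 and 68.6 CPM in control replicates 1 to 4. Its ca_fgfr1 libraries ran in the same order as those of fosab, but the highest of them was within the control range (log2 fold change -0.60 ± 0.30, edgeR adjusted p = 0.866). In the opposite direction, klf2b, a zinc finger factor, had a log2 fold change of -1.18 ± 0.24 (adjusted p = 0.327 by edgeR, 0.00303 by DESeq2). That of csrnp1a, a nuclear factor, was -1.38 ± 0.42 (edgeR adjusted p = 0.789). Both klf2b and csrnp1a had separate groups, with ca_fgfr1 lower. In the list the groups did not overlap for 2 genes with ca_fgfr1 higher and for 2 with it lower, as for 1.90% and 1.44% of all genes tested.

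Among the factors that act on immediate early promoters, 5 serum response and ternary complex factor IDs were tested, with 1 log2 fold change above 0, 4 below, a median of -0.56 and none at an unadjusted p under 0.05 in edgeR or called by DESeq2. elk3, a ternary complex factor, had 19.6, 20.7, 38.9 and 77.6 CPM in ca_fgfr1 replicates 1 to 4, against 20.3, 28.8, 25.8 and 33.1 CPM in control replicates 1 to 4. It was high in the same pair of ca_fgfr1 libraries, its log2 fold change being 0.54 ± 0.42 with an edgeR adjusted p of 0.877. Of 11 CREB and ATF relatives tested, 9 had a log2 fold change above 0 (median 0.24), 2 had an unadjusted p under 0.05, and none passed an adjusted p of 0.05 in edgeR or DESeq2. nab2, which encodes a co-repressor that binds Egr proteins and is itself an Egr target in mammals, had 5.15, 4.66, 7.81 and 14.9 CPM in ca_fgfr1 replicates 1 to 4, against 2.44, 2.73, 3.59 and 4.59 CPM in control replicates 1 to 4. Its groups were separate by a narrow gap (log2 fold change 1.27 ± 0.42, edgeR adjusted p = 0.866), and all 3 NAB genes tested peaked in ca_fgfr1 replicate 4.

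Negative-feedback and Ets genes of the Fgf pathway were measured in the same libraries. Of 13 tested, 12 had a log2 fold change above 0, with a median of 0.88. The groups did not overlap, with ca_fgfr1 higher, for 7 (1.90% of all genes tested). At an adjusted p of 0.05, edgeR called 1, spry2 (0.0498% of all genes tested), and DESeq2 called 5, all higher (0.344%). Their summed CPM was 999, 983, 1416 and 1831 in ca_fgfr1 replicates 1 to 4, against 322, 549, 569 and 527 in control replicates 1 to 4. All 4 ca_fgfr1 libraries were thus above every control, including replicates 1 and 2. The median SD of log2 CPM of these 13 genes was 0.567 in ca_fgfr1 and 0.512 in control, against 1.59 and 0.644 for the 8 immediate early genes. dusp6, which encodes an Erk phosphatase, ranked the ca_fgfr1 libraries like the immediate early genes, with 133, 198, 216 and 479 CPM in ca_fgfr1 replicates 1 to 4, against 66.9, 67.3, 68.5 and 60.3 CPM in control replicates 1 to 4. Of the 13 genes, 8 peaked in ca_fgfr1 replicate 4 (10.6% of all genes tested) and 4 ran in the order replicate 4, 3, 2, 1 (5.55%). The difference in spread between the lists was not tested.

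**Figure D4:**
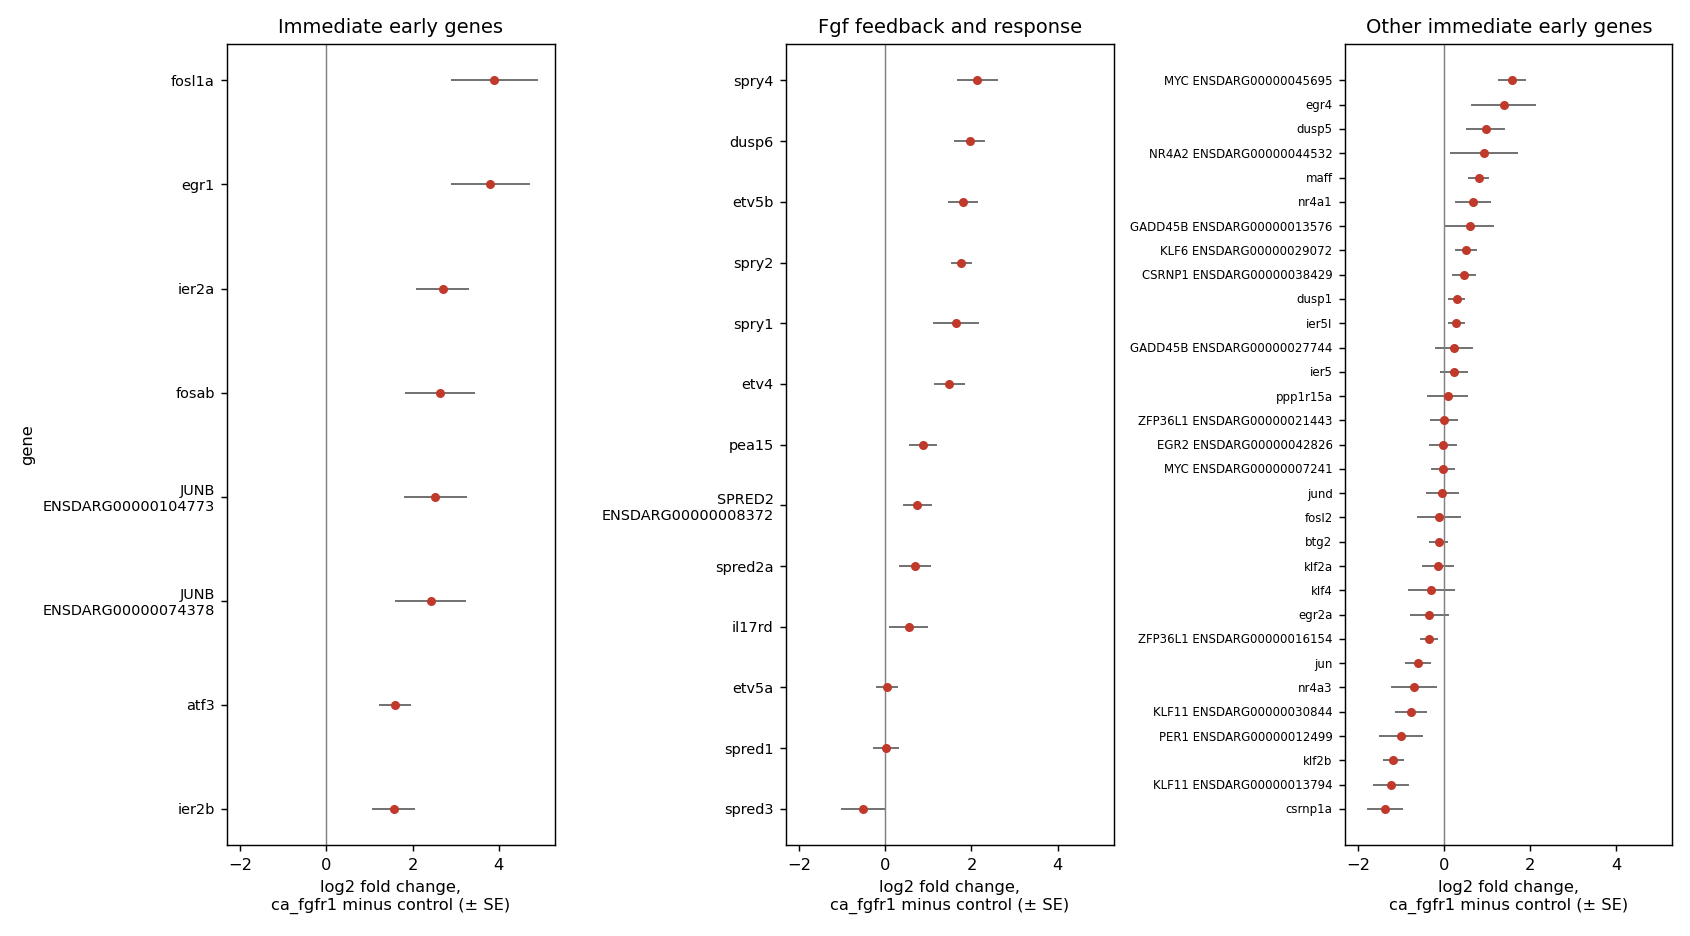
edgeR log2 fold change (ca_fgfr1 minus control, bars ± SE) of the 8 tested immediate early genes (left), 13 Fgf feedback and response genes (middle) and 31 other immediate early genes (right), each sorted by size. The 8 genes on the left lie between 1.56 and 3.90, while the genes on the right fall on both sides of 0 with a median of -0.02.

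Genes outside the list were ranked by how closely they followed its profile across libraries. Likeness was taken as the root mean square difference in centred log2 CPM from the median profile of the 8 tested genes, over the 8 libraries and 12040 genes of at least 5 CPM on average, for which its median was 1.43. The distances of the 8 genes themselves ran from 0.308 to 1.49, so the farthest of them was no nearer than the middle of all genes compared. The nearest was si:ch211-153b23.5 (distance 0.489), with 8.88, 23.3, 50.3 and 164 CPM in ca_fgfr1 replicates 1 to 4, against 11.1, 4.63, 8.92 and 9.08 CPM in control replicates 1 to 4. Next came both PTGS2 IDs, named for the prostaglandin synthase COX-2 (distances 0.527 for ENSDARG00000010276 and 0.549 for ENSDARG00000004539), of which the first had 1.05, 3.47, 11.4 and 24.3 CPM in ca_fgfr1 replicates 1 to 4, against 2.06, 0.682, 0.821 and 0.683 CPM in control replicates 1 to 4. They were followed by DUSP6 (0.567) and by ENSDARG00000100185, which has no symbol (0.577). In each of the genes named here ca_fgfr1 replicate 4 was the highest library, which the choice by a profile that peaks there favours.

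Markers of other tissues and of the heat shock response were set beside this ranking. Over 18 heat shock chaperone IDs the summed level was 4935, 5803, 7591 and 9541 CPM in ca_fgfr1 replicates 1 to 4, against 5888, 5787, 6758 and 9291 CPM in control replicates 1 to 4. None was called by edgeR or DESeq2 at an adjusted p of 0.05, though DESeq2 gave hsp70.3 no adjusted p. None had an unadjusted p under 0.05 in edgeR, and 8 of the 18 shared the order replicate 4, 3, 2, 1 within ca_fgfr1. hsp70.3, a heat-inducible chaperone gene, had 2.15, 3.35, 3.85 and 36.7 CPM in ca_fgfr1 replicates 1 to 4, against 2.06, 0.818, 2.10 and 9.61 CPM in control replicates 1 to 4. Of the 18 IDs, 8 peaked in ca_fgfr1 replicate 4 (10.6% of all genes tested), among them hsp70.3, which was far lower in control replicate 4. The summed level was also highest in ca_fgfr1 replicate 4, but it was nearly as high in control replicate 4. Of these sums, HSPA8 ENSDARG00000068992 alone held 3721 CPM in ca_fgfr1 replicate 4 and 4450 CPM in control replicate 4. The centred median log2 CPM of the list was 0.70 in ca_fgfr1 replicate 4 and 0.39 in control replicate 4.

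Epidermal markers (10 of 10 detected, none at 0) summed to 7284, 12601, 13524 and 14184 CPM in ca_fgfr1 replicates 1 to 4, against 25645, 14849, 15255 and 9114 CPM in control replicates 1 to 4. Their sum shared the order within ca_fgfr1 but was highest in control replicate 1. Of the 10 markers, 3 had the order replicate 4, 3, 2, 1 within ca_fgfr1, and none was highest in ca_fgfr1 replicate 4. Macrophage and neutrophil markers (6 IDs for 8 names, 4 tested) summed to between 21.8 and 40.5 CPM in ca_fgfr1 libraries and to between 20.6 and 60.1 CPM in control libraries. Of these, the scavenger receptor marco had no count in ca_fgfr1 replicate 3 or control replicate 1, and the lysozyme gene lyz had 0.954, 0.718, 11.3 and 13.7 CPM in ca_fgfr1 replicates 1 to 4, against 0.281, 0.682, 1.23 and 3.90 CPM in control replicates 1 to 4. It was high in the same pair of ca_fgfr1 libraries as the immediate early genes. SPI1 had 2.67, 3.11, 4.60 and 4.84 CPM in ca_fgfr1 replicates 1 to 4, against 3.75, 2.73, 2.92 and 5.86 CPM in control replicates 1 to 4. It was the 1 marker of the 4 tested with the order replicate 4, 3, 2, 1 within ca_fgfr1. Log2 fold changes were -0.01 ± 0.36 for SPI1, -0.81 ± 0.42 for lcp1 and -0.11 ± 0.33 for coro1a. The untested csf1ra averaged 0.229 CPM in ca_fgfr1 and 2.18 CPM in control. Neural crest markers (10 IDs, 8 tested) summed to 154, 254, 351 and 402 CPM in ca_fgfr1 replicates 1 to 4, against 219, 290, 289 and 288 CPM in control replicates 1 to 4. Their sum too ran upwards within ca_fgfr1, and 4 of the 8 tested had the order replicate 4, 3, 2, 1. Among them DLX2 ENSDARG00000079964 had 4.63, 60.9, 96.8 and 159 CPM in ca_fgfr1 replicates 1 to 4, against 43.0, 33.7, 33.2 and 51.1 CPM in control replicates 1 to 4. MITF ENSDARG00000037833, which was not tested, had 1 count in ca_fgfr1 replicate 3 and none in any other library of either group. The median log2 fold change of the 8 neural crest IDs tested was -0.09. The part of the heat shock response, or of epidermal, neural crest or myeloid cells, in the ranking of the libraries was not tested.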

How the data were processed

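RNA of 8 single hindbrains (4 ca_fgfr1, 4 control) was amplified and sequenced by the authors, who aligned the reads with STAR 2.5.1b to GRCz10 and estimated gene counts with RSEM 1.2.31. The deposited values are expected counts (RSEM estimates) that had been rounded by the authors and not scaled for depth. Column names give letters, read as C for control and F for ca_fgfr1. Whether counting used strand is not given in the sources used here. No column was left unused.

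The analysis used R 4.3.3 and edgeR 4.0.16: filterByExpr, which kept 18075 of 32189 IDs (at least 0.565 CPM in 4 libraries), TMM factors, glmQLFit and glmQLFTest without covariates, with Benjamini-Hochberg adjustment over all genes tested. SE is the absolute log2 fold change over the square root of F. Log2 CPM used a prior count of 2. DESeq2 1.42.0 and limma-voom (limma 3.58.1) were alternatives, beside other scaling factors, filters, a replicate block and leaving out each library. The labels do not say that replicates differ in more than the embryo, so p-values measure the spread between these hindbrains.

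The genes and lists were chosen with earlier results of these data known. All 10 genes are named, any gene of the lists may be named with its values, and so may the 6 genes outside them with the nearest profile, of which 1 is not reported here. Levels were not ranked between genes, since no gene length was used. Other lists compared were vasculature, neural crest, head mesenchyme, otic vesicle, blood, muscle, reference genes and the unfolded protein response.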

Additional observations from a re-analysis of the deposited data

Results flagged for a closer look

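In 54 groups of 4 libraries examined for 1 library standing apart from the other 3, chance alone marks about 1 in 20, and 4 were marked. Each was in the control group, and the value is the gap to the nearest library over the whole range of the group. For egr3 it was 1, because control replicate 2 had 1 count and the other controls had 0. For JUNB ENSDARG00000104773 it was 0.830, because control replicate 2 was at 8.59 CPM and the other controls lay between 3.54 and 4.12 CPM. For the mean log2 CPM of the Fgf feedback and response list it was 0.845, and for that of the reference gene list 0.876, both with control replicate 1 as the lowest library.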

How the results depend on the processing

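Over all genes, the study's criteria called 3 genes in edgeR. They called 1 with RLE, upper-quartile or library-total scaling or robust fitting, 5 with at least 5 CPM required in 4 libraries, 6 with no filter, with limma-voom or with the non-legacy fit, 44 with DESeq2, and 0 to 1 with a library left out. Using an adjusted p of 0.05 instead called 9 genes with the filter, 14 without it, 87 with DESeq2 and 1 to 13 with a library left out.

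None of the immediate early genes passed in edgeR. DESeq2 called 5, where 0.344% of genes were called higher. It called 0 to 7 with a library left out, for which no such share is given. At an unadjusted p under 0.05 there were 8, but 3 where 5 CPM was required, since only those 3 were left, and 4 in DESeq2 without ca_fgfr1 replicate 3. At an exact permutation p of 0.05 or less there were 4, and 1 to 5 with a library left out. The groups did not overlap for 4 genes (1.90% of all genes tested), and for 4 to 7 with a library left out (2.39% to 12.2%). Apart from rescaling, leaving out a library cannot make separate groups overlap. Leaving out both control replicate 1 and ca_fgfr1 replicate 2 was a choice made after seeing the data, as was DESeq2 with a library left out. Without both, the study's criteria called 0 genes. The permutation test was passed by 0 immediate early genes, since 3 against 3 cannot go below 0.1. The groups did not overlap for 7 of them. The share of all genes in that fit is not given here, and it was 12.2% with control replicate 1 alone left out.

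A replicate block called 0 genes by the study's criteria and 2 at an adjusted p of 0.05, and left 6 of the immediate early genes at an unadjusted p under 0.05. Samples of the same number deviated from their groups with correlations of -0.29, -0.01, 0.22 and 0.19, so the numbers were not taken as pairing them. Of the fold changes and exact permutation p-values of single genes under these settings, 265 neither crossed the threshold nor changed direction, 34 newly passed it, 18 no longer passed and 0 changed direction. The 265 include DESeq2 fits that gave a gene no adjusted p, and the permutation p-values carry no direction. Genes at under 3 counts in a library, fosb and egr3 above all, are limited by depth.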

Other observations

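atf3 is also known from the response to misfolded protein and amino acid shortage, so genes of that response were listed too. Of 9 tested, 5 had a log2 fold change above 0, 2 had an unadjusted p under 0.05 (chac1 and sesn2, both higher in ca_fgfr1) and none passed an adjusted p of 0.05 in edgeR or DESeq2. chac1, a glutathione-degrading enzyme, had 43.8, 59.0, 50.7 and 89.8 CPM in ca_fgfr1 replicates 1 to 4, against 39.2, 44.6, 31.1 and 26.9 CPM in control replicates 1 to 4. sesn2, a stress-induced regulator of growth signalling, had 5.20, 10.8, 10.2 and 24.8 CPM in ca_fgfr1 replicates 1 to 4, against 4.59, 7.77, 5.90 and 6.54 CPM in control replicates 1 to 4. Both were highest in ca_fgfr1 replicate 4, and the groups overlapped for both. ddit3, the classical factor of that response, had 3.15, 1.32, 3.22 and 3.33 CPM in ca_fgfr1 replicates 1 to 4, against 1.97, 4.16, 3.90 and 4.20 CPM in control replicates 1 to 4.

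Of the lists of other tissues, edgeR called none of the genes tested at an adjusted p of 0.05 (6 for vasculature, 8 for neural crest, 8 for head mesenchyme, 10 for otic vesicle and ganglia, 7 for blood and 5 for muscle), nor any of 6 reference genes. At an unadjusted p under 0.05, 3 muscle, 2 head mesenchyme and 2 epidermal genes were lower in ca_fgfr1, as were 3.21% of all genes tested. DESeq2 called 1 of the head mesenchyme genes. Of the muscle genes, actc1b and ckma were lower through control replicate 4 alone. In control replicates 1 to 4 actc1b had 0.749, 1.16, 1.03 and 112 CPM and ckma 0.281, 1.09, 0.923 and 31.7 CPM. The ca_fgfr1 libraries reached 3.59 CPM for actc1b and 1.38 CPM for ckma. The remaining muscle gene, myhz2, had separate groups at low levels, with means of 0.197 CPM in ca_fgfr1 and 0.959 CPM in control. Muscle markers summed to 635 CPM in control replicate 4 and to at most 83.7 CPM in any other library.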
